A study of Homo sapiens with 24 samples.

Results

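Squamous lineage transcription factors are the nuclear regulators that set up and maintain stratified squamous epithelium, the tissue from which squamous carcinoma of the head and neck arises. The 9 genes described here, TP63, SOX2, KLF4, GRHL1, GRHL2, GRHL3, ZNF750, OVOL1 and TFAP2A, were chosen by name, and all 9 were found by their Ensembl identifiers among the 60617 genes counted. RNA-seq was performed on MDA686TU (686Tu) cells, a malignant line of squamous cell carcinoma of the head and neck, so that all libraries came from 1 cell line. All cells were grown in DMEM/F12 with 10% FBS, and after 24 h there were 4 groups of 6 libraries, namely cells with no treatment (control), cells given EGCG at 40 µM, cells given resveratrol at 15 µM, and cells given both agents at these doses (combination). EGCG (epigallocatechin gallate) belongs to the catechins, and resveratrol is a stilbene. Resveratrol was dissolved in DMSO and EGCG in water, and the sources used here do not say whether the control received DMSO, so that resveratrol and its solvent cannot be told apart.

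In stratified epithelium, TP63 keeps basal cells in their proliferative and lineage-committed state, while KLF4, ZNF750, the grainyhead-like factors and OVOL1 act as cells leave the basal layer, form their junctions and barrier, and differentiate. TP63 and SOX2 lie on the long arm of chromosome 3, a region often gained in squamous carcinoma, and TFAP2A encodes an AP-2 factor that binds many keratinocyte genes. The comparisons ask how EGCG, resveratrol and their combination changed the transcripts of these regulators, and whether the combination differed from resveratrol.

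The libraries held 7034872 to 11735574 counts, and 15476 genes had enough counts to be tested. Replicates 1 to 3 and 4 to 6 of every group differed in the mitochondrial share of the counts, which was 0.249% to 0.326% in the former and 0.448% to 0.775% in the latter, and values within each set are given for the members. All 10 keratinocyte markers passed the filter on low counts. Their summed normalized count was 158912 to 168541 in control libraries, 152544 to 172137 in EGCG libraries, 132415 to 140647 in resveratrol libraries and 130635 to 142479 in combination libraries. Of the markers of other cell types, PTPRC of leukocytes, PECAM1 of endothelium and COL3A1 and DCN of fibroblasts never exceeded 1 count in a library, and MUC5B of glands was at 0 in all 24. COL1A1, a fibroblast collagen that carcinoma cells can also express, was at 1182 ± 92.5 normalized counts in the control, 981 ± 85.9 after EGCG, 1445 ± 90.8 after resveratrol and 1650 ± 88.3 after both (SD, n = 6 each). COL1A1 was higher in the groups with resveratrol, in which most members below changed. It was lower with EGCG (log2 fold change -0.27, edgeR adjusted p = 0.00215), in which few of them changed. The part of COL1A1 in the results of the members was not tested. Of the fibroblast markers 2 of 6 passed the filter, and the list's summed normalized count was 1117 to 1349 in the control and 1526 to 1755 with the combination. The other lists stayed low, with sums of 5.64 to 22 for endothelium (1 of 4 markers passed), 1.06 to 10.5 for leukocytes (0 of 5), 2.10 to 17.5 for melanocytes (1 of 3) and at most 2.06 for glands (0 of 4).

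Per gene length, TP63 was the most abundant of the 9 factors in untreated cells, at 53.7 ± 1.51 FPKM (SD, n = 6), above 92.7% of the genes tested. GRHL2 followed at 16.3 ± 0.582 FPKM and KLF4 at 12.9 ± 1.13 FPKM. SOX2 at 7.86 ± 0.997 FPKM and TFAP2A at 7.56 ± 0.335 FPKM overlapped each other, and their order is not larger than the spread between libraries. GRHL3 at 2.44 ± 0.351 FPKM, ZNF750 at 2.29 ± 0.351 FPKM and OVOL1 at 2.19 ± 0.300 FPKM formed a lower group in which neighbours overlapped. GRHL1 was the lowest at 0.954 ± 0.102 FPKM, above 17.6% of the genes tested. GRHL3, ZNF750, OVOL1 and GRHL1, named above as acting when cells leave the basal layer, lay in the lower part of the order. GRHL2 and KLF4, named with them, lay above SOX2.

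**Figure D1:**
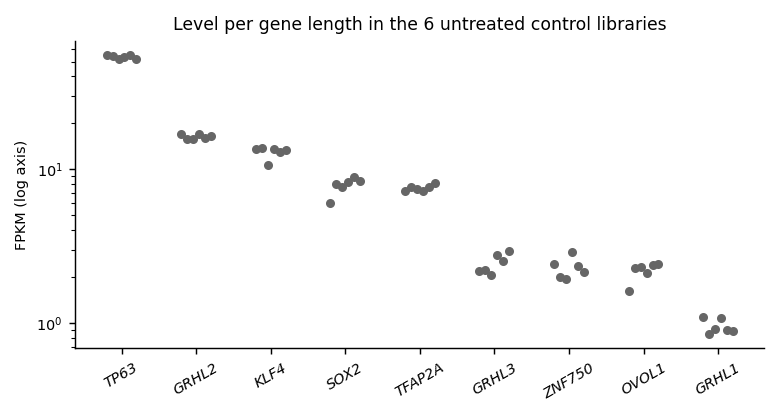
FPKM, a count per gene length and library scale, of the 9 factors in the 6 untreated control libraries, 1 point per library, on a log axis. TP63 lies above all others at 51.7 to 55.4 FPKM and GRHL1 lies lowest at 0.847 to 1.09 FPKM, while GRHL3, ZNF750 and OVOL1 overlap.

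Upstream sequence was found for 6 of the 9 members, with 8 start sites, in RefSeq on GRCh38.p14, and the entries of GRHL2, ZNF750 and OVOL1 were not among them. The 250 bases before the start are shown for GRHL3, GRHL1 and KLF4, which rose, and for TFAP2A, which fell. Of the members with a window, these 4 were called both with resveratrol and with the combination. ZNF750 and GRHL2 were also called in both comparisons but had no window. None of the 4 windows shown holds an annotated exon, although those of GRHL3 and KLF4 lie inside the annotated genes. Capitals mark matches, on either strand, to the CACCC box read by KLF factors (CACCC), the CCAAT box (CCAAT), the E-box (CACGTG), the AP-2 motif (GCCNNNGGC), the SOX core (ACAATG), the grainyhead motif (AACCNGTT) and the core of the antioxidant response element (TGACNNNGC), and no marked match overlaps another. Each sequence runs 5′ to 3′ on the strand of its gene.
GRHL3, first start, chr1:24319107-24319356, plus strand: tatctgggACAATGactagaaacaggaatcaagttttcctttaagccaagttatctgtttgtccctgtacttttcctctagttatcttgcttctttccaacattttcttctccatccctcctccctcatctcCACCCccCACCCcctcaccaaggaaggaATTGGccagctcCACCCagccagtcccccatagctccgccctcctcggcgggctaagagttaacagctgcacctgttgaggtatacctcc
GRHL1, chr2:9951443-9951692, plus strand: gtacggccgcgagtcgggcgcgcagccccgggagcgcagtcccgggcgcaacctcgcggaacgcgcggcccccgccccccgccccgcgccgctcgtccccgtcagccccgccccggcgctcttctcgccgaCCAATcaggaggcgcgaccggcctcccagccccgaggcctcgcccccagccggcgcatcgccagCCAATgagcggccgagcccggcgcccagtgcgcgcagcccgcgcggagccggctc
KLF4, chr9:107489770-107490019, minus strand: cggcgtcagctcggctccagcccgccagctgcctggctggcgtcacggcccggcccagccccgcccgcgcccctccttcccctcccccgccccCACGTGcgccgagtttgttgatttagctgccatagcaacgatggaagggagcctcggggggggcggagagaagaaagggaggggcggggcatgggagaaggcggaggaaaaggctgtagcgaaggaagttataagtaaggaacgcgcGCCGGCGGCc
TFAP2A, first start, chr6:10419660-10419909, minus strand: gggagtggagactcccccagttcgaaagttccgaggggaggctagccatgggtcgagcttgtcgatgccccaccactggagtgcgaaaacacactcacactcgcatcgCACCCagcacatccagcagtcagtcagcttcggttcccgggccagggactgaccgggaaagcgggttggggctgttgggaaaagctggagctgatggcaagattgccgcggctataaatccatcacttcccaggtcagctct

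Counted back from the start, the first start of GRHL3 had CACCC boxes at -118, -111 and -78, a CCAAT box at -90 and a SOX core at -242. GRHL1 had CCAAT boxes at -119 and -55 in a window of 81.6% GC. KLF4 had an E-box at -157 and an AP-2 motif at -10, and TFAP2A had a CACCC box at -142. Among the windows not shown, the second start of GRHL3 held an AP-2 motif at -50, a CACCC box at -41, an antioxidant response element core at -235 and a SOX core at -220. TP63 held CCAAT boxes at -249 and -68, SOX2 an AP-2 motif at -131 and a CCAAT box at -47, and the second start of TFAP2A a CACCC box at -25. The grainyhead motif was in none of the 8 windows of the members. Among 35116 promoter windows of the same length, 54.7% held a CACCC box, 32% a CCAAT box, 19.8% an AP-2 motif, 10.9% the antioxidant response element core, 9.29% a SOX core, 6.34% an E-box and 1.49% a grainyhead motif. The matches describe the letters of these windows and were not tested for binding.

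With resveratrol 4 of the 9 factors rose and 2 fell. GRHL3, ZNF750, GRHL1 and KLF4 rose, 2.13-fold, 1.75-fold, 1.41-fold and 1.25-fold, and TFAP2A and GRHL2 fell to 0.793 and 0.901 of the control. DEGs were genes with an adjusted p under 0.1 and p under 0.05, and in this comparison 56.9% of the 15476 genes tested were DEGs, 28.9% higher and 28% lower. The 6 of 9 members called are therefore close to the share in all genes. For these same 6 members no resveratrol library fell within the range of the control, which held for 31.1% of all genes. The median log2 fold change of the 9 members was 0.16, and that of all genes tested was 0.0037.

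With the combination 5 members rose and 3 fell, where 29.9% of all genes were higher and 29.9% lower, 59.8% in either direction. GRHL3 rose 2.03-fold, ZNF750 1.87-fold, GRHL1 1.44-fold and KLF4 1.28-fold, and TFAP2A fell to 0.730 of the control. TP63 rose 1.06-fold and SOX2 fell to 0.818 of the control, and neither was called with resveratrol, where SOX2 had a p of 0.053 in edgeR and was called by DESeq2 and in other settings given below. OVOL1 was the member not called. The groups did not overlap for 4 members that rose and 2 that fell, against 15.6% and 16.3% of all genes, and the median of the members was 0.15 against -0.0015 in all genes.

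EGCG changed few genes, 1.76% of those tested (0.905% higher and 0.859% lower), and among the members OVOL1 and TFAP2A were lower and none was higher. No member's EGCG libraries were separate from the control libraries, against 1.63% of all genes. The median log2 fold change of the members was -0.0024 and that of all genes was 0.000898. RNA from bulk cultures cannot tell fewer cells expressing a factor from less of its RNA per cell, here and in every comparison below. The labels number the libraries as replicates without naming separate cultures, so the p-values measure the spread between these libraries, which may be technical.

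**Figure D2:**
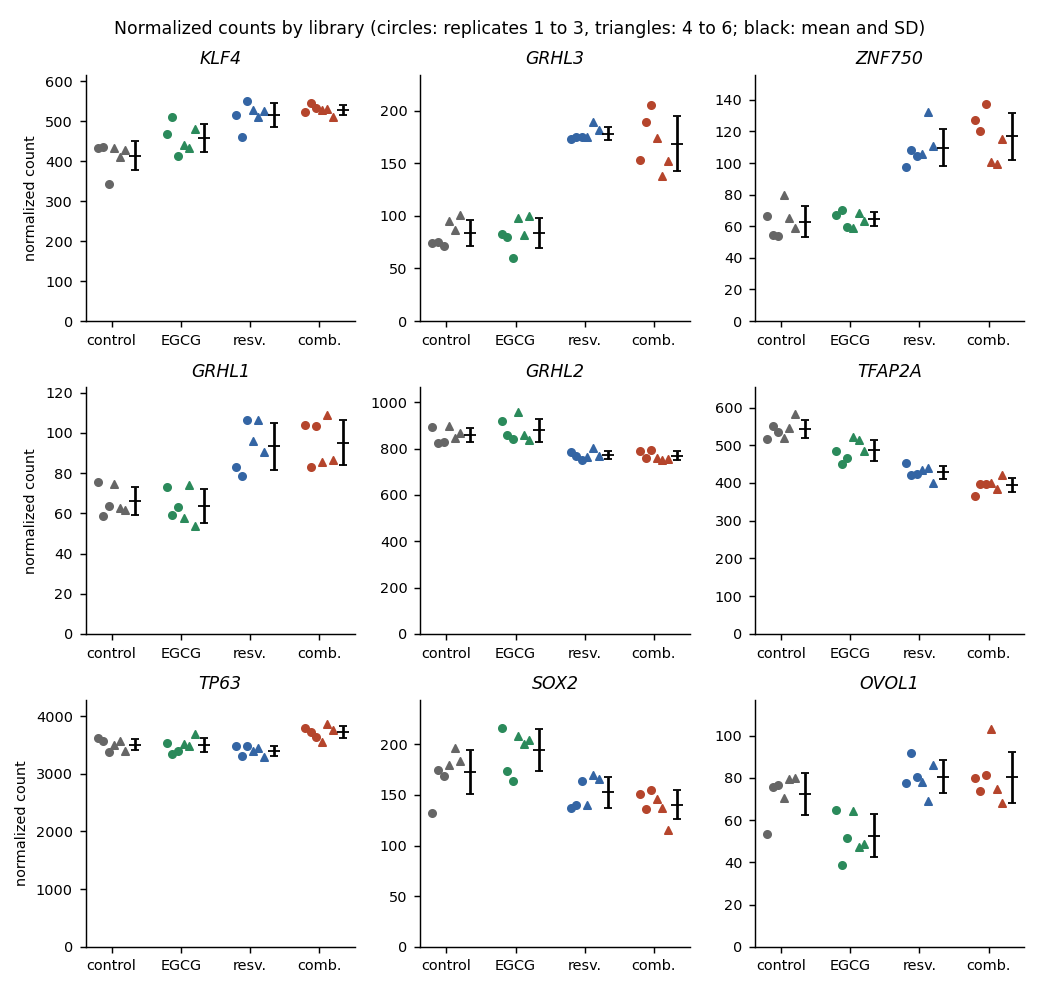
Normalized counts (counts divided by a size factor per library) of the 9 factors by group, 1 point per library, circles for replicates 1 to 3 and triangles for 4 to 6, with the mean and SD in black. GRHL3, ZNF750, GRHL1 and KLF4 lie higher with resveratrol and the combination than in the control without overlap, and TFAP2A and GRHL2 lie lower without overlap.

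GRHL3 (ENSG00000158055, GRCh38 chr1:24199558-24364482, plus strand) encodes the grainyhead-like factor needed for the epidermal barrier. Its lowest, median and highest normalized counts were 71.1, 81.1 and 101 in the control and 60.2, 82.8 and 100.2 with EGCG. Resveratrol libraries had 173, 175 and 189.9, and combination libraries 138, 164 and 206. Every library with resveratrol, alone or combined, was above every control and EGCG library. The log2 fold change was 1.09 with resveratrol (SE 0.0988, edgeR adjusted p = 1.19e-11) and 1.02 with the combination (SE 0.101, adjusted p = 7.57e-11). The exact permutation test gave p = 0.00216 for each, the smallest that 6 against 6 libraries allow. With EGCG it was -0.013 (95% interval -0.24 to 0.22, adjusted p = 0.988). Fitted within replicates 1 to 3 the rise with the combination was 1.33, and within replicates 4 to 6 it was 0.72, where every control library was higher than those of replicates 1 to 3. Resveratrol gave 1.25 and 0.95 in these sets. The gene STPG1 lies on the opposite strand within the span of GRHL3, but shares no exonic bases with it.

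GRHL1 (ENSG00000134317, chr2:9951693-10002277, plus strand), a grainyhead-like factor that regulates desmosomal cadherins, had the fewest fragments per length of the 9. Its normalized counts had a lowest, median and highest value of 58.8, 63.3 and 75.6 in the control and 53.8, 61.2 and 74.1 with EGCG. With resveratrol they were 78.5, 93.1 and 107, and with the combination 83.3, 95.05 and 109. The libraries with resveratrol were again all above the control and EGCG libraries. GRHL1 rose by a log2 fold change of 0.49 with resveratrol (SE 0.0998, adjusted p = 7.72e-05) and 0.53 with the combination (SE 0.101, adjusted p = 3.48e-05). Replicates 1 to 3 and 4 to 6 gave 0.44 and 0.56 for resveratrol, and for the combination 0.56 and 0.49. EGCG gave -0.033 (95% interval -0.25 to 0.19). A long noncoding RNA on the opposite strand shares 86 exonic bases with GRHL1 and is not among the genes counted. The strand setting used in counting is not given, so that a part of the GRHL1 counts may belong to this RNA.

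GRHL2 (ENSG00000083307, GRCh38 chromosome 8, plus strand), which maintains E-cadherin, claudins and the epithelial state, moved the other way from GRHL1 and GRHL3. Control libraries lay at 826, 858 and 898 normalized counts (lowest, median, highest) and EGCG libraries at 837, 858 and 957. Resveratrol libraries lay at 753, 769 and 801 and those of the combination at 751, 760 and 796. The difference was small, but no treated library with resveratrol reached the lowest control. The log2 fold change was -0.15 with resveratrol (SE 0.0356, adjusted p = 0.000547) and -0.16 with the combination (SE 0.0359, adjusted p = 0.000271). In replicates 1 to 3 and 4 to 6 these were -0.14 and -0.16 for resveratrol, -0.11 and -0.21 for the combination, all called. EGCG gave 0.030 (95% interval -0.041 to 0.10, adjusted p = 0.852). Scaled by library size alone, the value with resveratrol was -0.062 and not called (adjusted p = 0.137).

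ZNF750 (ENSG00000141579, chr17:82829434-82840022, minus strand) encodes a zinc finger factor that acts downstream of p63 in epidermal differentiation and is mutated in some squamous carcinomas. Control libraries had 53.5, 61.9 and 79.6 normalized counts and EGCG libraries 59.1, 65.4 and 70.0 (lowest, median, highest). Resveratrol libraries had 97.4, 107 and 132, and combination libraries 99.7, 118 and 138. The lowest library with resveratrol was above the highest control. ZNF750 rose by 0.80 on the log2 scale with resveratrol (SE 0.0978, adjusted p = 1.12e-08) and by 0.90 with the combination (SE 0.0982, adjusted p = 7.41e-10). In replicates 1 to 3 and 4 to 6 these were 0.84 and 0.78 for resveratrol, 1.15 and 0.64 for the combination. EGCG gave 0.047 (95% interval -0.17 to 0.27). ZNF750 shares 222 exonic bases with TBCD on the opposite strand, which had 496 to 837 counts per library. The kit marks the strand, but the setting used in counting is not given in the sources used here, so that a part of the ZNF750 counts may belong to TBCD.

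KLF4 (ENSG00000136826, chr9:107484852-107490482, minus strand) encodes a Krüppel-like factor of barrier formation and cell cycle exit. The lowest, median and highest normalized counts were 342, 430 and 436 in the control, with 1 library well below the others, and 414, 455 and 512 with EGCG. Resveratrol libraries had 462, 520 and 551, and those of the combination 511, 529.5 and 545. All 12 libraries with resveratrol exceeded the highest control, whereas the EGCG libraries overlapped the control. KLF4 rose by 0.32 with resveratrol (SE 0.0528, adjusted p = 3.5e-06) and by 0.36 with the combination (SE 0.0532, adjusted p = 4.85e-07). Both sets of replicates gave like values, 0.34 and 0.30 for resveratrol, 0.41 and 0.30 for the combination. With EGCG the log2 fold change was 0.15 (95% interval 0.038 to 0.26), which did not pass after adjustment (adjusted p = 0.248, exact permutation p = 0.0498). A long noncoding RNA on the opposite strand shares 357 exonic bases with KLF4 and is not among the genes counted. The strand setting is not given, so that a part of the KLF4 counts may belong to this RNA.

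OVOL1 (ENSG00000172818, chr11:65787063-65797214, plus strand), which encodes a zinc finger repressor that restrains proliferation and mesenchymal genes in epithelium, was the member with the largest EGCG difference. Its normalized counts were 53.4, 76.1 and 79.8 in the control and 38.8, 50.2 and 64.8 with EGCG (lowest, median, highest). Resveratrol libraries had 69.1, 79.2 and 91.9, and combination libraries 68.3, 77.4 and 103. The EGCG libraries lay below 5 of the 6 control libraries and overlapped only with the lowest. OVOL1 fell by 0.46 on the log2 scale with EGCG (SE 0.121, adjusted p = 0.0431, exact permutation p = 0.013). This call was lost when control replicate 5 or 6, or EGCG replicate 2 or 5, was left out (log2 -0.44, -0.43, -0.39 and -0.42, adjusted p = 0.105 to 0.136). Fits of 3 libraries a group gave -0.37 for replicates 1 to 3 and -0.55 for replicates 4 to 6, neither called. With both agents OVOL1 was not called against the control, at 0.15 (95% interval -0.076 to 0.38, adjusted p = 0.259), and its libraries were above every EGCG library, at 0.61 against EGCG (SE 0.120, adjusted p = 4.92e-05). Resveratrol gave 0.16 (adjusted p = 0.216), with 0.30 within replicates 1 to 3 and 0.022 within replicates 4 to 6, neither called. Scaled by library size alone, OVOL1 was called higher with resveratrol (0.25) and the combination (0.23).

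TFAP2A (ENSG00000137203, chr6:10393186-10419659, minus strand), an AP-2 factor of ectoderm and keratinocytes, was lower in all treated groups. Control libraries had 518, 540.3 and 583 normalized counts and EGCG libraries 449, 485 and 523 (lowest, median, highest). Resveratrol libraries had 401, 429 and 452, and combination libraries 366, 397 and 422. The group means fell from control to EGCG, to resveratrol and to the combination, at 542 ± 24.0, 487 ± 27.9, 429 ± 17.6 and 394 ± 18.6, and adjacent groups overlapped. TFAP2A fell by 0.15 with EGCG (SE 0.0430, adjusted p = 0.0699), by 0.34 with resveratrol (SE 0.0433, adjusted p = 3.89e-08) and by 0.45 with the combination (SE 0.0443, adjusted p = 5.66e-11). The EGCG call was lost when control replicate 2, 5 or 6, or EGCG replicate 1, 2 or 3, was left out (log2 -0.15 to -0.13, adjusted p = 0.117 to 0.212). Replicates 1 to 3 and 4 to 6 gave -0.30 and -0.37 for resveratrol, -0.46 and -0.45 for the combination, all called. TFAP2A-AS1 and TFAP2A-AS2 on the opposite strand share 438 and 941 exonic bases with it, at no more than 11 counts in a library.

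TP63 (ENSG00000073282, chr3:189631389-189897276, plus strand), the master regulator of squamous identity, varied little. Its lowest, median and highest normalized counts were 3374, 3533 and 3616 in the control and 3339, 3505 and 3697 with EGCG. With resveratrol they were 3286, 3426 and 3491, and with the combination 3556, 3739 and 3859. The combination libraries overlapped the top of the control and were above all resveratrol libraries. EGCG gave a log2 fold change of -0.0024 (95% interval -0.060 to 0.055) and resveratrol -0.039 (95% interval -0.097 to 0.019, adjusted p = 0.256). TP63 rose by 0.089 with the combination (SE 0.0285, adjusted p = 0.00778, exact permutation p = 0.00649), by 0.087 within replicates 1 to 3 and by 0.092 within replicates 4 to 6. Of the 14 annotated transcripts, 6 start near the first start and 8 at least 158270 bases downstream of it, so that counts per gene do not separate the TA forms from the ΔN forms of p63.

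SOX2 (ENSG00000181449, chr3:181711925-181714436, plus strand) encodes a stem cell factor that works with p63 in squamous carcinoma. It had 132, 177 and 196 normalized counts in the control and 164, 202 and 216 with EGCG (lowest, median, highest). Resveratrol libraries had 137, 152 and 169, and combination libraries 115, 142 and 155. The combination libraries were below all EGCG libraries but overlapped the lowest control library. SOX2 fell by 0.29 with the combination (SE 0.0886, adjusted p = 0.00564, exact permutation p = 0.0238), while within replicates 1 to 3 it was at -0.090 and not called, and within replicates 4 to 6 it fell by 0.49. Against EGCG it fell by 0.47 (SE 0.0872, adjusted p = 2.33e-05). Resveratrol gave -0.17 (95% interval -0.35 to 0.0022), with an adjusted p of 0.0919 but an edgeR p of 0.053, and thus no call. Without control replicate 1, EGCG replicate 3, resveratrol replicate 3, 5 or 6, or combination replicate 3 or 6, SOX2 was called lower with resveratrol (log2 -0.24 without the first and -0.20 to -0.17 without the others). It was also called lower by DESeq2 (-0.18, adjusted p = 0.0899) and with DESeq2 size factors in edgeR (-0.18, adjusted p = 0.0832). The same held with every gene of at least 1 count (-0.18, adjusted p = 0.0738) and with a term for replicates 1 to 3 against 4 to 6 (-0.17, adjusted p = 0.0807). Within replicates 4 to 6 it was called at -0.23 (adjusted p = 0.0506), and within replicates 1 to 3 it was at -0.099. EGCG gave 0.18 (95% interval 0.011 to 0.35, adjusted p = 0.438). SOX2 has 1 exon within an intron of SOX2-OT, which had 0 to 7 counts per library.

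**Figure D3:**
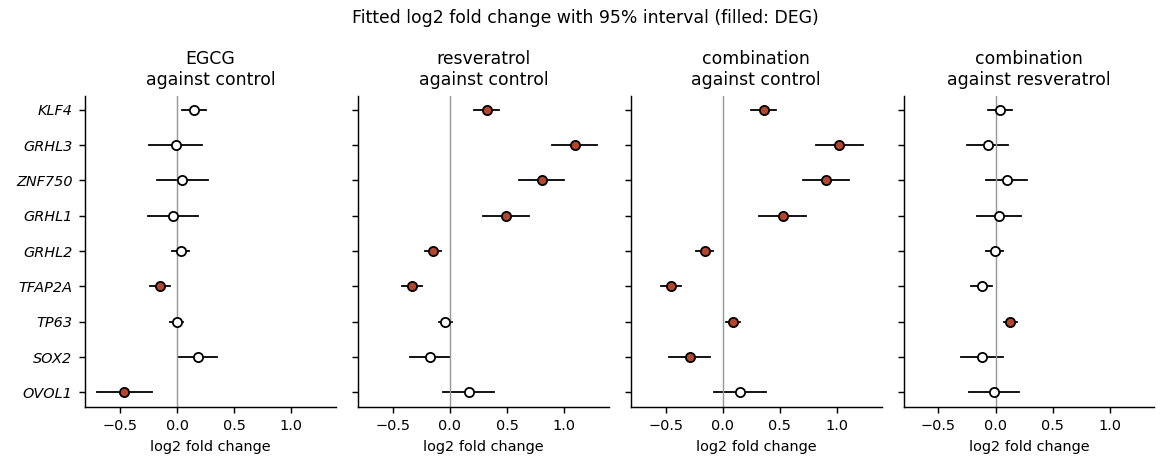
Log2 fold change of each factor with its 95% interval in 4 comparisons, filled where the factor was a DEG. The intervals of GRHL3, ZNF750, GRHL1 and KLF4 lie above 0 with resveratrol and the combination and include 0 between these groups, where TP63 alone was called.

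Set against resveratrol, the combination was higher in TP63 and was not called different in the other 8 factors, where 7.86% of all genes were DEGs, 4.01% higher and 3.86% lower. TP63 rose by 0.13 (SE 0.0285, adjusted p = 0.00421), and all 6 combination libraries were above all resveratrol libraries, as were 1.78% of all genes. In replicates 1 to 3 alone it was 0.12 and not called (adjusted p = 0.116). The intervals of the factors that resveratrol raised were -0.25 to 0.11 for GRHL3, -0.080 to 0.28 for ZNF750, -0.16 to 0.22 for GRHL1 and -0.067 to 0.14 for KLF4. Within replicates 1 to 3 and 4 to 6, ZNF750 was at 0.31 and -0.14, GRHL3 at 0.078 and -0.23 and SOX2 at 0.0095 and -0.26, none of them called. TFAP2A lay lower in the combination at -0.12 (95% interval -0.21 to -0.027), with an adjusted p of 0.133 in edgeR and an exact permutation p of 0.00866. Without resveratrol replicate 6 or combination replicate 6 it was -0.14 and called.

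Each of the 9 members was called in the combination against EGCG, 6 higher and 3 lower, where 57.8% of all genes were DEGs, 28.7% higher and 29.1% lower. GRHL3 was 1.04 higher, ZNF750 0.86, OVOL1 0.61, GRHL1 0.56, KLF4 0.21 and TP63 0.092, and SOX2 was at -0.47, TFAP2A at -0.30 and GRHL2 at -0.19 (log2 fold changes). KLF4 and TP63 overlapped between these groups and the other 7 members did not, against 27.5% of all genes. In replicates 4 to 6 alone TP63 was at 0.063 and not called (adjusted p = 0.204).

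Whether the effects of the agents added up was tested with an interaction term, which called 41 of all genes (0.265%) and 0 of the 9 members by edgeR. At an unadjusted p under 0.05 the term held 7.72% of all genes and 3 members. These were TP63 at 0.13 (SE 0.0403, adjusted p = 0.29), OVOL1 at 0.45 (SE 0.162, adjusted p = 0.431) and SOX2 at -0.30 (SE 0.123, adjusted p = 0.535), all as log2 departures from the sum of the single effects. DESeq2 called TP63, at 0.13 with an adjusted p of 0.0996. For GRHL3 the term was -0.056 (95% interval -0.35 to 0.24) and for ZNF750 0.052 (95% interval -0.23 to 0.34), so that these intervals include no departure.

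**Figure D4:**
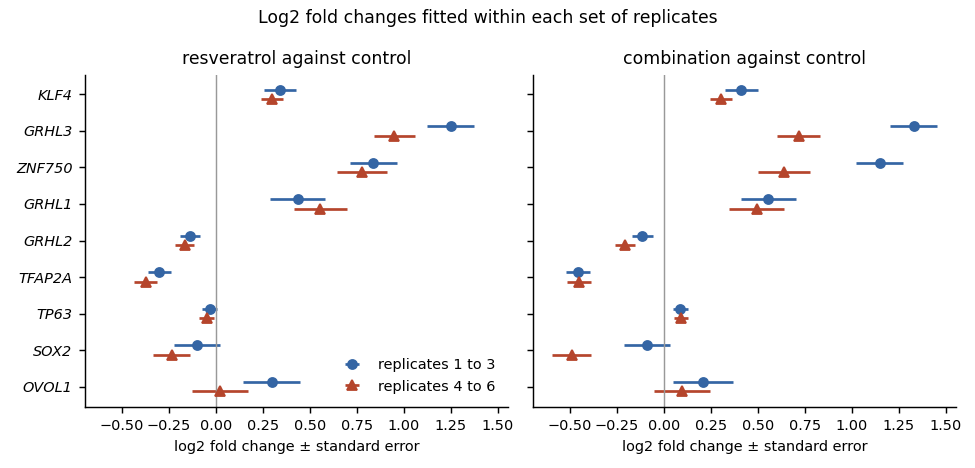
Log2 fold changes with standard errors fitted within replicates 1 to 3 (circles) and within replicates 4 to 6 (triangles), with resveratrol and with the combination against the control. The sets lie close for KLF4, GRHL1, TFAP2A and TP63, and apart for GRHL3 (1.33 and 0.72) and ZNF750 (1.15 and 0.64) with the combination.

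The change of GRHL3, ZNF750 and SOX2 with the combination was compared between the sets of replicates in a fit with a term for it, which was added after the data had been seen. Replicates 4 to 6 minus replicates 1 to 3 gave -0.61 for GRHL3 (SE 0.174, adjusted p = 0.553), -0.51 for ZNF750 (SE 0.185, adjusted p = 0.79) and -0.40 for SOX2 (SE 0.164, adjusted p = 0.818). Over all genes this term called 0.0129%, and none of the 9 members. The mitochondrial share differed between the same sets, as given above, and its part in these values was not tested.

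Genes of cell junctions and polarity, among them known targets of grainyhead-like factors, rose in 17 of 18 with resveratrol, in 16 of 18 with the combination, and none fell, where 28.9% and 29.9% of all genes rose. The list's median log2 fold change was 0.45 and 0.50, against 0.0037 and -0.0015 in all genes. This list and those below were drawn up with earlier results of these data known, so their shares are not independent evidence of a direction. Of the grainyhead-like members, GRHL3 and GRHL1 rose in the same libraries, while GRHL2, the most abundant of them in untreated cells, fell. A link between these members and the list was not tested. TJP3, a tight junction scaffold, rose by 1.25 with resveratrol and 1.64 with the combination, and PRSS8, a membrane protease of epithelial barriers, by 1.10 and 1.26. CLDN1, a claudin of the tight junction, rose by 0.81 with resveratrol and by 1.31 with the combination. CDH1, the E-cadherin gene, had 3562 ± 36.0 normalized counts in the control, 4354 ± 83.9 with resveratrol and 4800 ± 162 with the combination (SD, n = 6). With EGCG 3 of the 18 rose, where 0.905% of all genes rose. These were CLDN1 by 0.28, ESRP1, an epithelial splicing factor, by 0.14 and CDH1 by 0.12. The combination was above resveratrol in 4 of the 18, led by CLDN1 at 0.50 and CLDN7 at 0.24, where 4.01% of all genes were higher.

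Late differentiation genes, of which 23 of 27 could be tested, fell more often than they rose in the libraries in which GRHL3, ZNF750 and KLF4 rose. With resveratrol 4 rose, 10 fell and 9 were not called, with a median of -0.21, where 28.9% of all genes rose and 28% fell. With the combination 2 rose and 17 fell, with a median of -0.61, where 29.9% of all genes rose and 29.9% fell. The falls were led by SBSN at -1.28 and SPRR3, a small proline-rich protein of the cornified envelope, at -1.23 with the combination. SBSN had 162 ± 30.1 normalized counts in the control, 107 ± 13.3 with resveratrol and 66.0 ± 4.13 with the combination. PPL, the periplakin gene, rose by 0.34 and TGM1, the keratinocyte transglutaminase, by 0.21. Against resveratrol the combination was lower in 11 of the 23 and higher in none, where 3.86% of all genes were lower and 4.01% higher. EGCG called 0 of the 23, where 1.76% of all genes were called. CDSN, CRNN, LORICRIN and TGM3 had too few counts to be tested, at no more than 15 in a library. A part of this list was known to fall in these libraries when it was drawn up, so that it is not independent evidence of the direction.

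Basal genes, such as the keratins and integrins that p63 sustains, fell in 13 of 19 after resveratrol and 12 of 19 after the combination, where 28% and 29.9% of all genes fell. In each comparison 5 of the 19 rose, close to the share of all genes (28.9% and 29.9%). S100A2, a calcium-binding protein of basal cells, fell by 0.63 with resveratrol and fell by 0.58 with the combination. KRT5, the basal keratin, had log2 fold changes of -0.29 and -0.37. Another keratin of the list, KRT15, went the other way and was called higher at 0.29 and 0.27. GPX2, a glutathione peroxidase that responds to oxidative stress as well as to p63, rose by 1.28 and 1.23 on the log2 scale, and it was at 238 ± 18.3 normalized counts in the control and 554 ± 59.3 with the combination. The median of the 19 was -0.24 for resveratrol, -0.18 for the combination, and EGCG called none. The combination was above resveratrol in 5 of the 19 and below it in none, where 4.01% of all genes were higher and 3.86% lower.

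**Figure D5:**
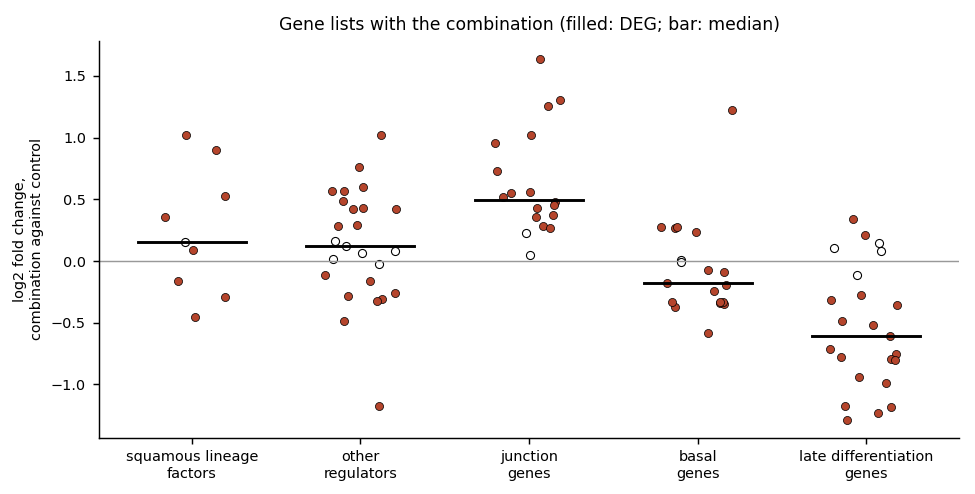
Log2 fold change of the combination against the control for the 9 factors and 4 lists of related genes, 1 point per gene, filled for DEGs, with the list's median as a bar. Junction genes lie above 0 with a median of 0.50, late differentiation genes lie mostly below with a median of -0.61, and the 9 factors lie on both sides.

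Of 25 other transcription factors and regulators of squamous epithelium, 12 rose and 6 fell with resveratrol, and 11 rose and 8 fell with the combination, with medians of 0.22 and 0.12. Of all genes 28.9% and 29.9% rose, and their medians were 0.0037 and -0.0015. The 6 and 8 that fell lie near the shares of all genes that fell, 28% and 29.9%. The 18 called with resveratrol compare with 56.9% of all genes, and with the combination 59.8% of all genes were called. SATB1, a chromatin organizer of the epidermis, rose by 0.87 with resveratrol and 1.02 with the combination, and CEBPA, a factor of keratinocyte cell cycle exit, by 0.81 and 0.76. HOPX, a homeodomain-only protein of late differentiation, was at -0.67 and -1.18. SOX15 was at -0.41 with resveratrol, and TP73, the p53 family relative of TP63, at -0.49 with the combination. Of the genes called between the combination and resveratrol, SOX15 was higher in the combination (0.13), and BARX2 (-0.56), TP73 (-0.36) and RUNX1 (-0.15) were lower, the last named after its value was seen. Of all genes 4.01% were higher in that comparison and 3.86% lower. EGCG called none of the 25, and the interaction term called none.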

How the data were processed

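The authors isolated total RNA with RNeasy, prepared stranded mRNA libraries (TruSeq), trimmed reads (Trimmomatic 0.36), aligned the reads to GRCh38 (HISAT2 2.0.4) and sorted the alignments (SAMtools 1.3.1), per the paper and the submitters' processing notes. The counting program, annotation release and strand setting are not given in the sources used here. The authors deposited raw counts per gene, not normalized, which were used for all tests. A second deposited table holds normalized counts (a signal), found equal to raw counts over DESeq2 size factors. The deposited FPKM values were used to order levels between genes. Counting error is included in the SD over 6 libraries.

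All 24 libraries entered 1 edgeR 4.0.16 fit under R 4.3.3 (TMM, filterByExpr by group, quasi-likelihood test, Benjamini-Hochberg adjustment over 15476 genes). DEGs had an adjusted p under 0.1 and p under 0.05, the limits the study states. Difference tests of single members were two-sided exact permutations of mean log2 CPM (prior count 2), 45 in all. The steps were tested on simulated data. DESeq2 1.42.0 was an alternative, beside other scaling, filters, thresholds, a replicate block, a batch term, and libraries left out.

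The members and lists were chosen with earlier results of these data known. The text names the 9 members, the 2 largest rises and falls among the DEGs of a list in a comparison it describes (followed across comparisons), list genes near 0, genes overlapping a member, the markers, and the 3 tested genes most like a member. Others are said to be named after their values were seen. The result of 1 gene under this rule is not reported here. Closest replicates differed by more than counting noise (chi-square per degree of freedom 1.29 for the closest pair). Promoter windows came from RefSeq and gene positions from GENCODE on GRCh38.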

Additional observations from a re-analysis of the deposited data

Results flagged for a closer look

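Among 36 groups of 6 libraries, 9 members in 4 groups, 2 held a library apart from the others by Dixon's criterion. Chance alone sets apart about 1 in 20 groups. KLF4 in control replicate 3 was at 342.4 normalized counts, with the nearest other control library at 410.3 (gap 0.727 of the range). OVOL1 in control replicate 1 was at 53.45, with the nearest at 70.39 (gap 0.644 of the range).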

How the results depend on the processing

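Across all alternatives, the called values of single members kept their direction and their call in 890 fits and lost the call in 20, and 0 reversed. Values not called kept their direction and side in 919 fits, were called in 17 and changed sign in 35. EGCG calls of members, 2 in the report, were 1 with every gene of at least 1 count, 1 at an adjusted p under 0.05 and 0 in replicates 1 to 3 or 4 to 6 alone, and 0 to 2 with a library left out. The combination against resveratrol had 1 member called, 0 in replicates 1 to 3 alone and 1 to 2 with a library left out, and the interaction had 0, with 1 by DESeq2. Fits of 1 set of replicates or with a library left out hold fewer libraries, and the cause of these changes was not tested. Values that changed sign were as follows. With library size alone TP63 was at 0.0043 with EGCG and 0.049 with resveratrol, a scaling that moved the median of all genes by under 0.1. In replicates 1 to 3 alone GRHL3 was at 0.022 with EGCG, and the combination against resveratrol gave 0.0095 for SOX2, 0.023 for GRHL2 and 0.078 for GRHL3, and the interaction 0.056 for GRHL3. In replicates 4 to 6 alone TP63 was at 0.029 and ZNF750 at -0.072 with EGCG, the combination against resveratrol gave -0.064 for GRHL1, -0.14 for ZNF750 (0.31 in replicates 1 to 3) and 0.074 for OVOL1, and the interaction -0.0094 for GRHL1 and -0.067 for ZNF750. With a library left out, the EGCG values ranged from -0.022 to 0.011 for TP63, -0.089 to 0.0091 for GRHL1 and -0.066 to 0.066 for GRHL3. Those of the combination against resveratrol ranged from -0.021 to 0.077 for GRHL1, -0.021 to 0.00071 for GRHL2 and -0.094 to 0.035 for OVOL1, and the interaction from -0.024 to 0.11 for ZNF750. Same-numbered libraries deviated together by more than 0.1 in 2 of 36 pairs (correlation -0.011 to 0.13), so the numbers were not taken to pair the libraries. As a hint from the data, not the design, 30 of 72 library matches were best with their own number. Each match was chosen among the 6 libraries of another group. The replicate block left the same members called, 2 for EGCG, 6 for resveratrol and 8 for the combination, while DEGs over all genes with EGCG were 370 with the block and 273 without. For the interaction they were 85 and 41. GRHL1, GRHL3, ZNF750 and OVOL1 had 36 to 235 counts per library, which limits how small a change could be seen.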

Other observations

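Chromosome 3 neighbours of TP63 and SOX2 moved in both directions. Of 18 genes of the long arm listed for their place in the region often gained with them, 8 rose and 8 fell with resveratrol (median -0.030), where 28.9% of all genes rose and 28% fell. With the combination 5 rose and 9 fell (median -0.11), where 29.9% of all genes rose and 29.9% fell. The medians of all genes were 0.0037 and -0.0015. ETV5, an ETS factor, rose by 1.16 and BCL6, a transcriptional repressor, by 0.71 with the combination, and ECT2, a guanine nucleotide exchange factor of cytokinesis, was at -0.53 and GNB4, a G protein subunit, at -0.49. EGCG raised ETV5 by 0.31, the single gene of the 18 that it changed, where it changed 1.76% of all genes.

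Of 9 mesenchymal genes 6 could be tested, and TWIST2, ZEB1 and ZEB2 had no more than 6 counts in a library. With resveratrol 1 rose and 3 fell, where 28.9% of all genes rose and 28% fell. With the combination 2 rose and 2 fell, where 29.9% of all genes rose and 29.9% fell. VIM, the vimentin gene, was at -0.51 with resveratrol and -0.39 with the combination, and SNAI2, a zinc finger repressor, at -0.38 and -0.49. TWIST1, a factor of the mesenchymal state, rose by 0.33 and 0.48 in the same libraries. CDH2, the N-cadherin gene, rose by 0.29 with the combination, and FN1, the fibronectin gene, was at -0.27 with resveratrol, the latter named after its value was seen.

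Across the 24 libraries, which share the 4 treatments, the genes most like GRHL3 in log2 CPM were NLRP1, TOM1L2 and MOV10 (Pearson r = 0.966, 0.965 and 0.961). For ZNF750 they were KIAA0319L, KLHDC7B and ATG2A (0.958, 0.956 and 0.955), and for TFAP2A they were KIF23, MAT2A and TGFBI (0.936, 0.934 and 0.928). OVOL1 was most like TFEB, PMEPA1 and ID3 (0.771, 0.764 and 0.762). These values describe the libraries and follow the treatment groups.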
